A study of Homo sapiens with 11 samples.

Results

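The genes described here encode subunits of the Polycomb repressive complexes PRC2 and PRC1, and they were compared between NT2D1 cells with and without induced knockdown of L1TD1. All probes of the bead array whose gene symbol was 1 of 10 names were taken: EZH2, EZH1, SUZ12, EED, JARID2 and MTF2 of PRC2, and RNF2, PHC1, BMI1 and CBX2 of PRC1. The annotation paired 9 of the 10 genes with 13 probes, of 18852 named genes and 48803 probes in all, and it paired no probe with RNF2. Of these, 8 genes with 10 probes were detected on at least 5 of 11 arrays at a detection p under 0.01, among 9854 genes and 14338 probes that met the same condition.

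NT2D1 is an embryonal carcinoma cell line, a malignant counterpart of pluripotent embryonic cells. All samples came from clones that stably express TetR3, a tetracycline repressor, and an L1TD1shRNA, so the non-induced cells carry the same constructs as the induced cells. Doxycycline was added to 6 samples to release the hairpin (dox+, called induced), 5 samples received none (dox-, called non-induced), and all were collected on day 6. Every sample with doxycycline also carried the hairpin, so effects of doxycycline itself and of the knockdown cannot be told apart. Of the 6 clones, 3 have titles starting with 1 and 3 have titles starting with 5, which the file headers name shRNA1 and shRNA5: prefix 1 holds 3 non-induced and 3 induced samples, and prefix 5 holds 2 and 3. The submitters left out 1 sample because it did not group with its condition, a selection that favours differences between the conditions. Same-numbered samples are read as the same clone, which no label states.

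Polycomb proteins keep developmental genes silent in pluripotent cells. PRC2 places methyl groups on a lysine of histone H3 (H3K27): EZH2 or EZH1 is the catalytic subunit, SUZ12 and EED are required for its activity, and JARID2 and MTF2 guide it to chromatin. Canonical PRC1 reads that mark through a CBX protein, is held together with a PHC protein, and attaches ubiquitin to histone H2A through RNF2 with a partner such as BMI1.

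The targeted gene was examined first. L1TD1, an RNA-binding protein of pluripotent cells, had normalized log2 levels of 8.55, 8.57, 8.86, 8.82 and 8.91 in non-induced samples 1 to 5, and of 7.34 to 8.33 with a median of 7.84 in the 6 induced samples. The highest induced value was below the lowest non-induced value. The means were 8.74 ± 0.17 (SD, n = 5) and 7.84 ± 0.37 (SD, n = 6), a log2 difference of -0.91 ± 0.18 (SE) that left 53.4% of the signal. It did not pass the threshold over all probes in limma (adjusted p = 0.0753). It did with the authors' normalized values or without background correction (adjusted p = 0.0435), with array weights (0.0453) and without induced sample 5 (0.0330). The exact two-sided permutation test of this value alone, which ignores prefix and same-numbered pairs, gave p = 0.00433. Within prefix 1 L1TD1 fell by 0.98 ± 0.23 (limma, adjusted p = 0.0334), and within prefix 5 the difference was -0.87 ± 0.25 (adjusted p = 0.785). The call in prefix 1 was lost without the detection filter (limma, adjusted p = 0.0750) and when non-induced sample 1, 3, 4 or 5 or induced sample 1 or 3 was left out (adjusted p from 0.0522 to 0.126), with differences of -0.81 to -1.17.

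Arrays detected 13312 to 15004 probes in non-induced and 13301 to 15127 in induced samples. The mean raw intensity per array was 427 ± 29.2 (SD, n = 5) in the non-induced group and 373 ± 26.8 (SD, n = 6) in the induced group (exact permutation p = 0.0152), a difference that quantile normalization removes, and scaling each array to a common median instead shifted the median log2 difference of all probes to -0.13. Of the 8 marker genes of embryonal carcinoma and pluripotent cells 7 had a probe, and all 7 were detected on at least 5 arrays. Of 9 neuronal, 7 mesenchymal and 7 trophoblast markers, 6, 5 and 4 were also detected on at least 5 arrays, with CGA, CDX2 and CGB5 of the trophoblast list detected on 0 arrays. The summed raw intensity of the neuronal markers ranged from 3968 to 6881 in non-induced and from 2518 to 4927 in induced samples, that of the mesenchymal markers from 4678 to 8334 and from 2628 to 6011, and that of the trophoblast markers from 788 to 1018 and from 755 to 1480. That of the pluripotency markers ranged from 27330 to 36837 and from 23788 to 31608. These sums are not normalized, so they also carry the lower raw intensity of the induced arrays. In such raw sums of bulk samples, array brightness, fewer cells of a type and less RNA per cell cannot be told apart.

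EZH2 was the member with calls in these data, and they lay in prefix 1. Over all 11 samples 7 of the 10 Polycomb probes had a negative difference: the 3 of EZH2 and those of CBX2, JARID2, MTF2 and PHC1. All 3 EZH2 probes missed the threshold over all samples, and all 3 passed it within prefix 1. The other 7 genes with a detected probe did not pass in any of the comparisons, and 0 of 10 Polycomb probes passed over all samples in limma, where 6 of all kept probes (0.0418%) did, and 0 with the replicate number as a block. At an unadjusted p under 0.05 the count was 3 of 10 probes, all of EZH2, against 16.2% of all kept probes. The 3 EZH2 probes share a gene and are not 3 independent results.

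The brightest EZH2 probe, ILMN_2364529, had log2 levels of 9.86, 9.69, 9.69, 9.48 and 9.52 in non-induced samples 1 to 5, and of 9.03, 9.03, 8.83, 9.39, 9.33 and 8.92 in induced samples 1 to 6. The groups did not overlap, the induced samples being lower, with the narrowest gaps in prefix 5, which holds the samples numbered 4 and above. The means were 9.65 ± 0.15 (SD, n = 5) and 9.09 ± 0.23 (SD, n = 6), a log2 difference of -0.56 ± 0.14 (SE, 95% interval -0.85 to -0.26) that left 67.9% of the signal. The adjusted p in limma was 0.103, and the exact permutation p of this probe alone was 0.00433, over splits that ignore prefix and same-numbered pairs. With the replicate number as a fixed block the difference was -0.52 (limma, adjusted p = 0.276). This probe was the only 1 of the 10 Polycomb probes whose groups did not overlap, which 2.16% of all kept probes showed in either direction.

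The probe ILMN_1652913, which the annotation assigns to another RefSeq transcript of EZH2 than the other probes, had log2 levels of 9.22, 8.80, 8.73, 8.37 and 8.83 in non-induced samples 1 to 5, and of 7.72, 8.07, 7.15, 7.55, 8.55 and 7.07 in induced samples 1 to 6. Induced sample 5 lay within the range of the non-induced group, and the other 5 lay under it. The difference was -1.11 ± 0.24 (95% interval -1.62 to -0.59), which left 46.5% of the signal (limma, adjusted p = 0.0898; exact permutation p = 0.00866). Without induced sample 5 it was -1.28 and passed the threshold (limma, adjusted p = 0.0309).

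The remaining EZH2 probe, ILMN_1708105, had levels of 8.28, 8.20, 8.31, 7.66 and 7.69 in non-induced samples 1 to 5, and of 7.70, 7.53, 7.32, 7.93, 7.78 and 7.45 in induced samples 1 to 6. The groups were apart in prefix 1 and overlapped in prefix 5, where both non-induced samples were low. Over all samples the difference was -0.41 ± 0.17 (limma, adjusted p = 0.242; exact permutation p = 0.0476). That permutation p rose to between 0.0635 and 0.0952 when any of 8 samples was left out: non-induced 1, 2 or 3, or induced 1, 2, 3, 5 or 6.

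**Figure D1:**
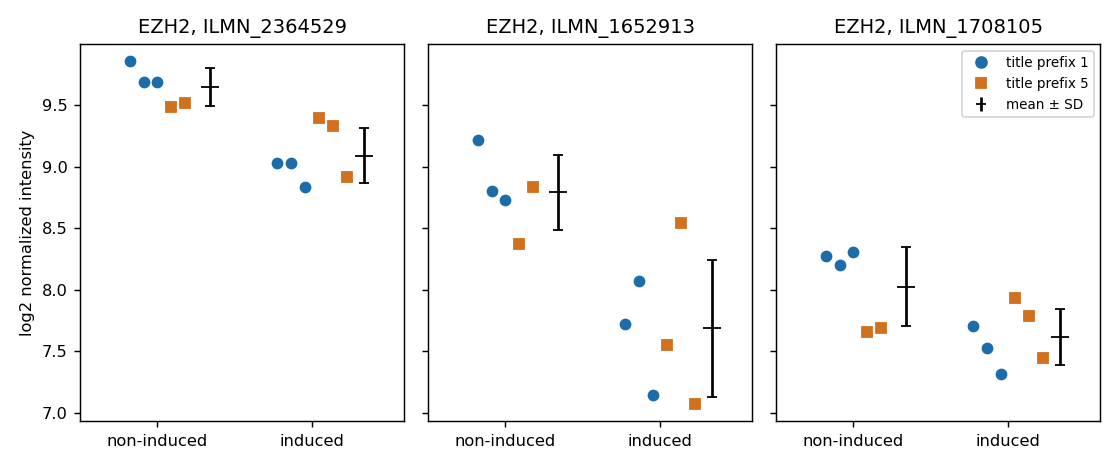
Normalized log2 level (vertical axis) of the 3 EZH2 probes, 1 panel each, in non-induced and induced samples, with prefix 1 and prefix 5 marked by symbol and the group mean ± SD. In the panel of ILMN_2364529 the induced samples (8.83 to 9.39) sit below the non-induced samples (9.48 to 9.86), while in the panel of ILMN_1708105 the samples of prefix 5 overlap.

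Within prefix 1, EZH2 fell by every probe. For ILMN_2364529 the mean went from 9.75 ± 0.10 to 8.96 ± 0.12 (SD, n = 3 each), a difference of -0.78 ± 0.17 that left 58.2% of the signal (limma, adjusted p = 0.0285). For ILMN_1708105 it went from 8.26 ± 0.05 to 7.52 ± 0.19, a difference of -0.74 ± 0.17 with 59.7% left (limma, adjusted p = 0.0350). For ILMN_1652913 it went from 8.92 ± 0.26 to 7.65 ± 0.46, a difference of -1.27 ± 0.33 with 41.4% left (limma, adjusted p = 0.0476). These were 3 of 10 Polycomb probes, or 1 of 8 genes, where 4.87% of all kept probes passed in either direction and 2.21% passed lower. Of the 698 probes past the threshold 381 were higher and 317 lower, a split that became 169 higher and 514 lower after scaling to a common median, under which all 3 EZH2 probes also passed. With the replicate number as a block 1356 probes passed, the 3 of EZH2 among them.

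The differences in prefix 1 stayed negative and of similar size when any 1 sample was left out, from -0.71 to -0.82 for ILMN_2364529, from -0.64 to -0.84 for ILMN_1708105 and from -1.02 to -1.48 for ILMN_1652913. The calls depended on single samples. Leaving out non-induced sample 1, induced sample 1, non-induced sample 3 or induced sample 3 left 0 of the 3 EZH2 probes past the threshold, and 1, 3, 42 or 2 of all probes. Leaving out non-induced sample 4 or 5 left 1 EZH2 probe, and leaving out non-induced sample 2 or induced sample 4 left 2. In those fits the adjusted p of a lost probe lay between 0.0557 and 0.166 (limma).

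The marker lists were set beside EZH2 within each prefix, with no test of a list. As the mean centred log2 level of the 7 measured pluripotency markers, the 3 non-induced samples of prefix 1 lay between 0.05 and 0.24 and the 3 induced samples between -0.38 and -0.17. Without L1TD1 the ranges were 0.0059 to 0.18 and -0.35 to -0.17, and the groups did not overlap either way. Of the 6 other than L1TD1 none passed in prefix 1: SOX2 had -0.68, NANOG -0.54, DNMT3B -0.54, POU5F1 -0.19, LIN28A -0.04 and DPPA4 0.06 (limma, adjusted p = 0.251, 0.103, 0.191, 0.713, 0.892 and 0.870). The 4 measured trophoblast markers lay between -0.37 and 0.14 in non-induced and between 0.48 and 1.13 in induced samples of prefix 1, and the 6 neuronal markers between 0.35 and 0.46 and between -0.18 and 0.16. In prefix 5 the non-induced and induced ranges were -0.0070 to 0.14 and 0.03 to 0.18 for the pluripotency markers and -0.52 to -0.11 and -0.53 to -0.25 for the trophoblast markers, so that these overlapped. The neuronal markers did not overlap in prefix 5 either, at 0.04 to 0.09 in non-induced and -0.65 to -0.04 in induced samples. The mesenchymal markers overlapped in both prefixes. How often other lists separate between groups of 2 or 3 samples was not counted, so separation here is a description. The part of the marker lists in the EZH2 differences was not tested.

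In prefix 5, 0 of 10 Polycomb probes and 0 of all kept probes passed the threshold (limma), and 2 of 10 had an unadjusted p under 0.05, against 5.89% of all kept probes. They were ILMN_1652913 of EZH2, with a difference of -0.88 ± 0.37 (limma, adjusted p = 0.830), and the probe of EED. The other EZH2 probes had differences of -0.29 ± 0.19 and 0.05 ± 0.19. The difference between the prefixes was itself tested as an interaction, effect in prefix 5 minus effect in prefix 1. It was 0.79 ± 0.26 for ILMN_1708105, 0.50 ± 0.25 for ILMN_2364529 and 0.39 ± 0.50 for ILMN_1652913 (limma, adjusted p = 0.311, 0.438 and 0.760). In limma 0 of 10 Polycomb probes passed for this term, where 0.0209% of all kept probes did, and 3 of 10 had an unadjusted p under 0.05, against 12.3%: those of EZH2 (ILMN_1708105), EED and PHC1. The EZH2 effect is therefore not shown to differ between the prefixes.

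EZH1, the alternative catalytic subunit, was detected on 1 of 5 non-induced and 3 of 6 induced arrays by its 1 probe, too few for testing. Its levels near background ran from 4.85 to 6.08 in non-induced and from 5.03 to 5.98 in induced samples, and the groups overlapped throughout.

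SUZ12, the subunit that holds PRC2 together, had log2 levels of 11.52, 11.77, 11.51, 10.98 and 11.26 in non-induced samples 1 to 5, and of 11.60, 11.70, 11.66, 11.20, 11.49 and 10.86 in induced samples 1 to 6. The groups overlapped, and samples separated by prefix rather than by doxycycline. The difference was 0.01 ± 0.18 (95% interval -0.37 to 0.40, limma adjusted p = 0.980), and -0.17 after scaling to a common median.

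The promoters of EZH2 and SUZ12 are shown because the first is the member that fell in prefix 1 and the second its partner with no detected difference. RefSeq on GRCh38.p14 gave 13 promoter entries for 9 of the 10 members, each from 250 bases before to 50 bases after the gene's start. Searched on both strands were the E2F-type motifs TTTGGCGC, TTTCCCGC, TTTCGCGC and TTTGCCGC, a search chosen after the values were seen. The EZH2 window is chr7:148884242-148884541 on the minus strand and the SUZ12 window chr17:31936757-31937056 on the plus strand. Capitals mark the match in each, at bases 252 to 259 and 62 to 69 from the 5′ end.
EZH2: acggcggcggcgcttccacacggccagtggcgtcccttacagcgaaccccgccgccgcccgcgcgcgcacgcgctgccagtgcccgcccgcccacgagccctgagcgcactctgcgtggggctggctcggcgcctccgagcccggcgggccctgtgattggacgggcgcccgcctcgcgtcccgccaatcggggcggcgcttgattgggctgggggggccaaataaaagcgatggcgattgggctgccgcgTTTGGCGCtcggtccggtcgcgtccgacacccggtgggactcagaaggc
SUZ12: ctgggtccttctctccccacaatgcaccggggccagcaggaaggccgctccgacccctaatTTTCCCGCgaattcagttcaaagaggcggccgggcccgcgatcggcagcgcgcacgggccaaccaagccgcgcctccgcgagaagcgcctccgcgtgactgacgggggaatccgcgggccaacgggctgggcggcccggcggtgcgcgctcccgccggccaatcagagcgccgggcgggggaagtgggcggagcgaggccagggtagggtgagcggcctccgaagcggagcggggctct

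A match was present in 4 of 13 entries (30.8%), 1 each for EZH2, EZH1, SUZ12 and MTF2, and in 3.31% of all 35116 promoter windows. Of the entries of a list of G1/S genes, many of them known E2F targets, 16 of 32 (50%) held one. The other EZH2 entry held none, and a match is a stretch of letters, not a measured binding site. Both windows are rich in CpG, with 46 and 40 such pairs, where the median of all windows was 14. The median was 36 over the 13 member entries and 32 over those of the G1/S list. The shares with a match thus come from sets unlike in CpG, and they were not matched for it. A match was held by EZH2, which fell in prefix 1, and by SUZ12, whose values overlapped between the groups. Whether the motif has a part in the EZH2 differences was not tested.

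EED, which binds the methylated histone and stimulates the enzyme, was near background. It was detected on 3 of 5 arrays without and on 5 of 6 with doxycycline, with levels of 6.94, 6.03, 6.44, 5.40 and 4.96 in non-induced samples 1 to 5 and of 5.44 to 6.48 in induced samples. The groups overlapped widely, and the lowest values were the non-induced samples of prefix 5. The difference was 0.26 ± 0.31 (95% interval -0.40 to 0.91; limma, adjusted p = 0.718). In prefix 5 it was detected in neither non-induced sample and in 2 of 3 induced samples. The mean of the 3 induced samples, 1 of them undetected, was at least 1.30-fold higher, a bound that was not tested, and the pair numbered 4 differed by 0.04. The fitted difference in prefix 5, which uses the undetected values, was 0.92 ± 0.33 (limma, adjusted p = 0.809).

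JARID2, which links PRC2 to chromatin, had levels of 11.04, 11.16, 11.26, 11.32 and 11.13 in non-induced samples and of 10.79, 10.94, 11.03, 11.05, 11.20 and 11.31 in induced samples 1 to 6. In 4 of 5 same-numbered pairs the induced sample was lower, while the groups overlapped. The difference was -0.13 ± 0.13 (95% interval -0.40 to 0.14; limma, adjusted p = 0.647; exact permutation p = 0.203). MTF2, a Polycomb-like protein that binds unmethylated CpG-rich DNA, ranged from 7.43 to 8.44 in non-induced and from 7.39 to 8.52 in induced samples. Its difference was -0.07 ± 0.22 (95% interval -0.53 to 0.40; limma, adjusted p = 0.913), and it was 0.02 with the replicate number as a block.

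Among the PRC1 genes, CBX2, which reads the methylated histone, had levels of 12.12, 11.83, 11.48, 11.90 and 11.98 in non-induced samples and of 11.51, 11.91, 11.37, 11.80, 11.44 and 11.36 in induced samples 1 to 6. The highest value was non-induced and the 3 lowest were induced, while the other 3 induced samples lay within the non-induced range. The difference was -0.30 ± 0.15 (95% interval -0.62 to 0.03; limma, adjusted p = 0.346; exact permutation p = 0.0736). This came from probe ILMN_1770678; of its other probes, ILMN_1686237 was detected on 3 and ILMN_1709645 on 0 of 11 arrays.

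PHC1, whose SAM domain joins PRC1 units together, had levels of 11.32, 11.36, 12.01, 11.67 and 11.59 in non-induced samples and of 11.17, 10.97, 11.35, 12.01, 12.13 and 11.65 in induced samples 1 to 6. Induced samples were the lower of each pair in prefix 1 and the higher in both pairs of prefix 5. Over all samples the difference was -0.04 ± 0.21 (95% interval -0.49 to 0.41; limma, adjusted p = 0.948). It was -0.40 ± 0.21 in prefix 1 (adjusted p = 0.274) and 0.30 in prefix 5, and the interaction was 0.70 ± 0.32 (limma, adjusted p = 0.399).

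BMI1, the partner that activates the ubiquitin ligase, had levels of 8.18, 7.78, 7.81, 7.28 and 7.26 in non-induced samples and of 8.01, 8.05, 8.22, 7.60, 7.64 and 7.06 in induced samples 1 to 6. Induced samples were higher in 4 of 5 pairs, but the groups overlapped. The difference was 0.11 ± 0.22 (95% interval -0.36 to 0.57; limma, adjusted p = 0.854), and -0.01 after scaling to a common median.

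**Figure D2:**
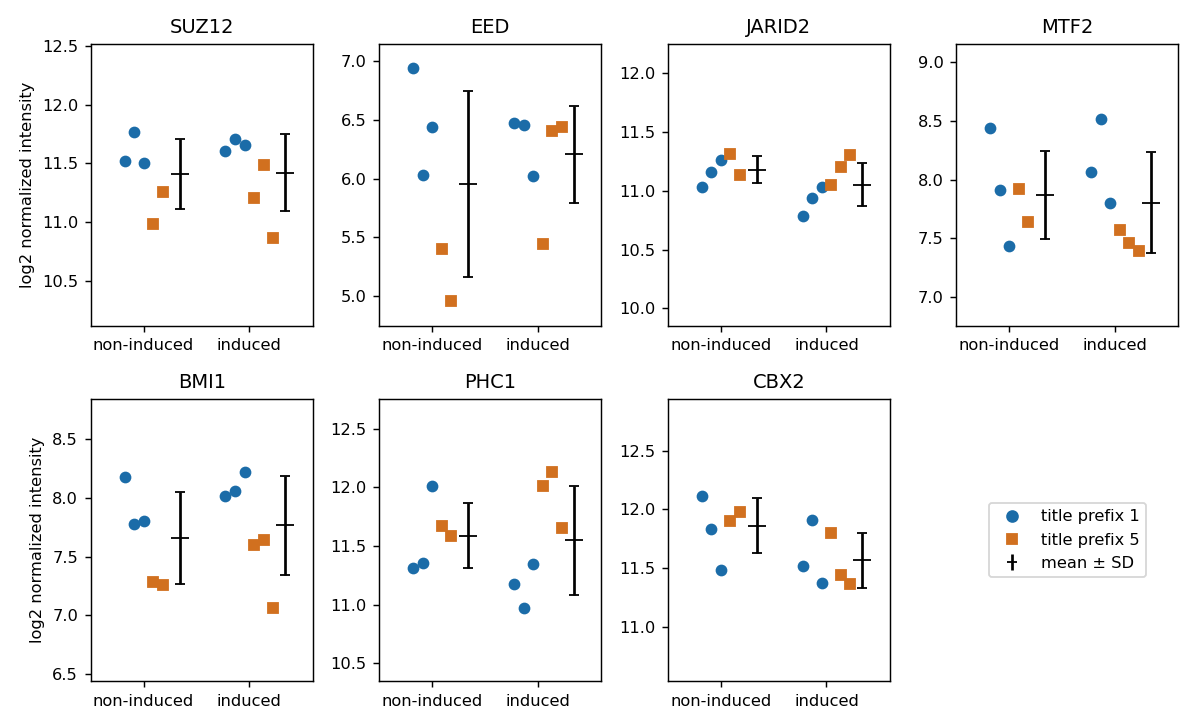
Normalized log2 level (vertical axis) of the 7 other Polycomb genes with a detected probe, 1 panel each, in non-induced and induced samples, with the prefixes marked by symbol and the group mean ± SD. In every panel the induced and non-induced samples overlap, and in those of SUZ12 and BMI1 the symbols of prefix 5 lie below those of prefix 1.

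**Figure D3:**
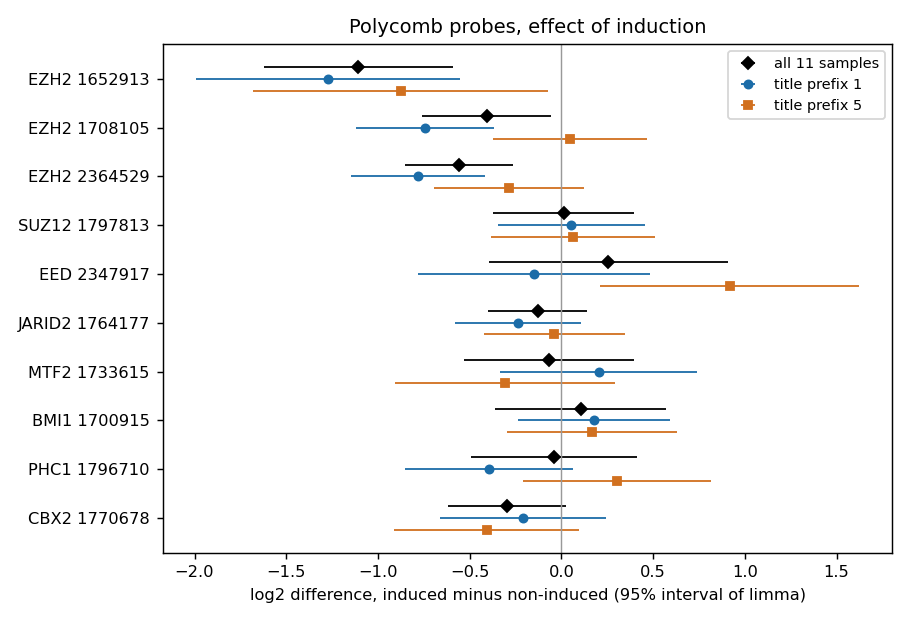
Log2 difference, induced minus non-induced, of the 10 detected Polycomb probes (rows) over all samples and within each prefix, with 95% intervals of limma as bars. The 3 EZH2 probes lie left of 0 in prefix 1 (-0.74 to -1.27), while the other probes lie between -0.40 and 0.20 there.

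Induction of the hairpin apart, some members had lower or higher values in prefix 5 than in prefix 1, with none past the threshold in the main fit. The fit for prefix counted every sample as independent, although same-numbered samples are read as the same clone. Clones thus enter its errors, and the counts of overlap, more than once. BMI1 ranged from 7.78 to 8.22 in prefix 1 and from 7.06 to 7.64 in prefix 5, a difference of -0.66 ± 0.14 in a model with group and prefix (limma, adjusted p = 0.118). SUZ12 ranged from 11.51 to 11.77 in prefix 1 and from 10.86 to 11.49 in prefix 5, a difference of -0.47 ± 0.14 (limma, adjusted p = 0.224). In both genes the prefixes did not overlap, 2 of 10 Polycomb probes against 1.53% of all kept probes. EED and MTF2 had differences of -0.70 ± 0.26 and -0.43 ± 0.19, and PHC1 one of 0.45 ± 0.18 (limma, adjusted p = 0.322, 0.421 and 0.367). In limma 0 of 10 Polycomb probes passed for prefix, where 0.0767% of all kept probes did, and 5 of 10 had an unadjusted p under 0.05, against 11.4%. With array weights BMI1 passed, at -0.64 (limma, adjusted p = 0.0328).

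The EZH2 levels were also expressed as log2 ratios to 4 PRC2 partners within each array, chosen after the values were seen, and the ratios are a description that largely restates the differences of EZH2 itself. For ILMN_1652913 the ratio changed by -1.12 ± 0.24 (SE) against SUZ12, -0.98 ± 0.31 against JARID2 and -1.04 ± 0.30 against MTF2, beside -1.11 for the probe alone. For ILMN_2364529 the changes were -0.57 ± 0.20 against SUZ12, -0.43 ± 0.16 against JARID2 and -0.49 ± 0.26 against MTF2, beside -0.56 alone. For ILMN_1708105 they were -0.42 ± 0.19, -0.28 ± 0.21 and -0.34 ± 0.30, beside -0.41 alone. EED was undetected on 3 of 11 arrays, and the ratios to it, from -0.66 to -1.36, rest partly on values at background.

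The genes whose levels over the 11 samples, each centred on its own mean, lay closest to those of the brightest EZH2 probe were ATG10, BCDIN3D and C7orf25. Their mean absolute distances were 0.0750, 0.101 and 0.104 on the log2 scale, where the median over 9853 genes was 0.351. Their own differences with doxycycline were -0.46, -0.48 and -0.49, and the measure is a description of these 11 arrays.

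Of the other genes of the system, subunits, regulators and opposing genes together, 47 of 60 listed had a detected probe. Of the 47, 0 passed in limma over all samples or within either prefix. At an unadjusted p under 0.05 there were 3 of 47 (6.38%) over all samples, against 16.1% of all 9854 genes. The median difference was -0.03, beside 0.01 over all 9854 genes.

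Of other PRC2 genes 6 of 7 were measured. By the brightest probe of each, differences ran from -0.13 for the histone chaperone RBBP7 to 0.10 for PHF1, a relative of MTF2. Other probes lay outside that range: the 3 of PHF19 ran from -0.43 to -0.015, and the 3 of PHF1 from 0.10 to 0.27. RBBP7 had -0.59 ± 0.18 in prefix 1 and 0.48 ± 0.20 in prefix 5 (limma, adjusted p = 0.0738 and 0.830), with an interaction of 1.07 ± 0.27 (adjusted p = 0.254). Among other canonical PRC1 genes, 8 of 11, the CBX family member CBX7 had 0.55 ± 0.22 (limma, adjusted p = 0.238) and CBX6 -0.39 (adjusted p = 0.363). PHC2 had -0.36 (adjusted p = 0.396), and the ubiquitin ligase RING1, the paralog of the unmeasured RNF2, had -0.17 (adjusted p = 0.608).

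Variant PRC1, which contains RYBP or YAF2 in place of a CBX protein, had 14 of 17 genes measured, 7 with a positive and 7 with a negative difference. RYBP had levels of 10.93, 10.85, 10.79, 10.97 and 11.02 in non-induced samples, and of 10.43, 10.46, 10.49, 10.46, 10.65 and 9.87 in induced samples 1 to 6. The groups did not overlap over all samples, with induced samples lower, which 2.16% of all kept probes showed in either direction. They did not overlap in either prefix, for which no share of all probes was counted. RYBP was named because its p was among the smallest of the list. The difference was -0.51 ± 0.14 (limma, adjusted p = 0.126). AUTS2, MGA and SKP1 had -0.53 ± 0.29, -0.33 and -0.24 (limma, adjusted p = 0.382, 0.475 and 0.442).

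Of the genes listed as opposing Polycomb none passed in the 3 lists examined. The H3K27 demethylases KDM6A and KDM6B had 0.28 ± 0.15 and 0.19 ± 0.17 (limma, adjusted p = 0.372 for KDM6A). In the complex that removes ubiquitin from H2A, 5 of 9 genes were measured, with a median of -0.12. Of the trithorax-type list, drawn up for H3K4 methyltransferase complexes, 12 of 14 genes were measured, 4 with a positive and 8 with a negative difference. In that list KMT2E had -0.38 ± 0.16 by its brightest probe (limma, adjusted p = 0.249) and -0.14 by its other kept probe.

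Developmental genes known as Polycomb targets in pluripotent cells were mostly silent in both groups. Of 104 listed, 91 had a probe, 53 were detected on 0 arrays, and 24 met the detection condition. The number of the 91 detected per array was 21 to 29 with a median of 23 in non-induced samples and 22 to 27 with a median of 23 in induced samples (exact permutation p = 0.916). Of the 24, 13 had a positive and 11 a negative difference over all samples, with a median of 0.03, and 0 passed in limma, while 5 had an unadjusted p under 0.05 (20.8%, against 16.1% of all 9854 genes).

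Within prefix 1, 3 of the 24 target genes passed (limma), 2 higher and 1 lower, where 4.72% of all 9854 genes passed. GATA2 met the detection condition mainly through the induced group, where it was high, and HOXC11 through the non-induced group. This count and the adjusted p of both genes are therefore a description. GATA2, a transcription factor of blood and trophoblast cells, was detected on all 3 induced arrays and on 0 of 3 non-induced arrays of that prefix and was at least 2.15-fold higher. That bound was not tested, and the fitted difference of GATA2, which uses the undetected values, was 1.40 (limma, adjusted p = 0.0293). GATA3, a factor of T cells and trophoblast that is also in the trophoblast marker list, rose by 1.34 (limma, adjusted p = 0.0293). In prefix 5 GATA3 had -0.11 (adjusted p = 0.979), the interaction was -1.45 (adjusted p = 0.298), and over all samples the difference was 0.66 (limma, adjusted p = 0.285). The homeobox gene HOXC11 was detected on all 3 non-induced arrays and on 0 of 3 induced arrays of prefix 1 and was at least 1.55-fold lower. That bound was not tested either, and the fitted difference of HOXC11 in prefix 1 was -0.85 (limma, adjusted p = 0.0461). Over all samples BMP2 and MSX1 had differences of -0.39 ± 0.14 and -1.30 ± 0.57 (limma, adjusted p = 0.190 and 0.272), MSX1 being detected on 5 of 6 induced arrays. GATA2 was detected on 1 of 5 non-induced and 5 of 6 induced arrays, and its fitted value of 0.94 ± 0.26 (limma, adjusted p = 0.121) rests on levels near background.

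Genes of the G1/S transition, which like EZH2 are known targets of E2F factors, were listed beside the members. The list was chosen with earlier results of these data known, so its shares and medians are a description. Of 27 genes 23 were measured, 20 with a negative difference, with a median of -0.20, where 48.3% of all genes were negative. In limma 0 passed over all samples, and 7 of 23 had an unadjusted p under 0.05 (30.4%), against 16.1% of all genes. RRM2, a subunit of ribonucleotide reductase, had -0.54 ± 0.14, and UHRF1, which maintains DNA methylation, had -0.62 ± 0.19 (limma, adjusted p = 0.108 and 0.157). In prefix 1 the median was -0.38. There 21 of 23 had a negative and 2 a positive difference. In prefix 1, 12 of 23 had an unadjusted p under 0.05 (limma, 52.2%), all of them lower, against 24.1% of all genes. Past the adjusted threshold was 1 of 23, a share near the 4.72% of all genes. It was MCM2, a subunit of the replicative helicase, which fell by 0.75 (limma, adjusted p = 0.0415). In prefix 5 the median was -0.08, and 0 of 23 had an unadjusted p under 0.05 (limma), against 5.02% of all genes. Whether these genes have a part in the EZH2 differences was not tested.

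**Figure D4:**
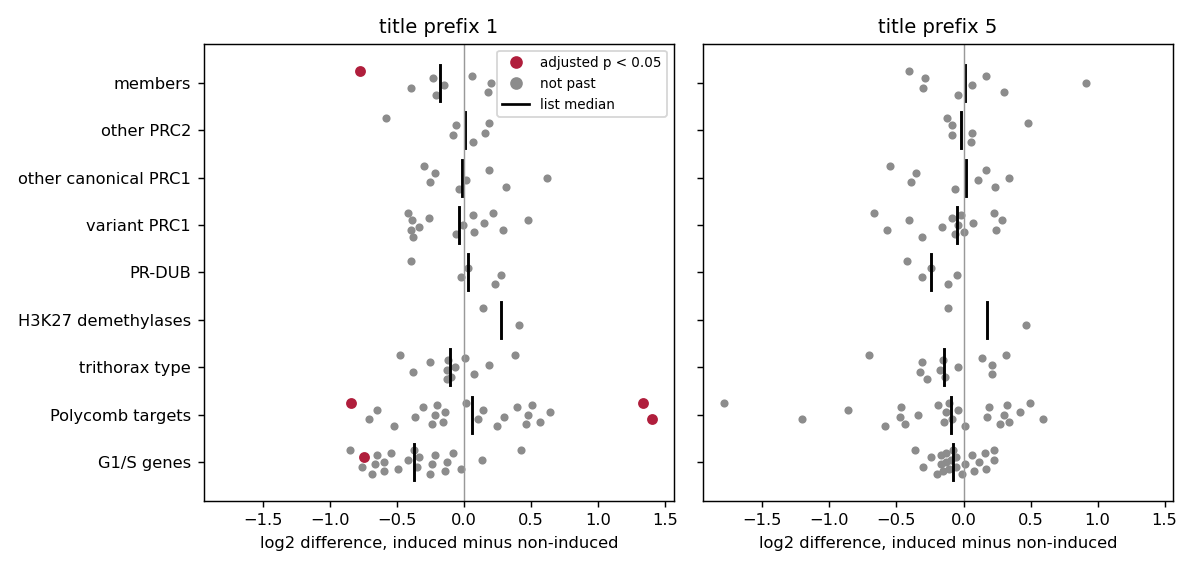
Log2 difference (horizontal axis), induced minus non-induced, of each measured gene of the Polycomb members and the pathway lists (rows), 1 panel per prefix, with a line at each list median and genes past the threshold in red. In prefix 1 the G1/S genes lie mostly left of 0 at a median of -0.38, in prefix 5 their median is -0.08, and no point of prefix 5 is red.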

How the data were processed

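Total RNA of 11 samples was labelled with biotin and hybridised to Illumina bead arrays, 1 per sample. The authors' deposited tables give an intensity per probe, not background-subtracted and not normalized, and a detection p-value beside it. Their normalized matrix, in the same linear unit, and the submitters' processing notes, which name limma without a version, complete the sources, and all columns of per-sample values were mapped to samples. No label states separate cultures beyond the clones, so p-values measure the spread between these samples.

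The deposited intensity values were background-corrected, quantile-normalized and put on the log2 scale with neqc (limma 3.58.1, R 4.3.3, statmod 1.5.0; offset 16), and probes detected at p under 0.01 on at least 5 arrays were kept. limma compared induced with non-induced samples over all kept probes with two-sided tests, and a probe passed where the p adjusted by Benjamini and Hochberg was below 0.05. A second model held group, prefix and their interaction, and a further model group and prefix. Single probes were also compared by exact two-sided permutation over 462 splits, with a smallest p of 0.00216. These splits ignore prefix and same-numbered pairs. Lists use the brightest kept probe of a gene. A fold against samples below detection is a bound against, per array, the higher of the lowest detected signal and the probe's own. The number of arrays limits the precision. The fit over all samples was tested on simulated data without prefix or clone structure. The prefix, interaction and block fits were not tested so.

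The members and lists were chosen with earlier results of these data known. Named were all members, L1TD1, the list genes past the threshold or, up to 4 per list, with the smallest p, and the 3 genes most like EZH2. Symbols come from the platform annotation (28098 probes with 1 symbol, 13 with several, 20692 unnamed here).

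Deviations of same-numbered samples from their group means correlated from -0.19 to 0.40, over 0.1 in 1 of 5 pairs. Taking the number as the clone rests on the design text, with 2 fits, without and with the number as a block. Alternatives were the block, other background correction, scaling, offset and filter, array weights, and each sample left out.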

Additional observations from a re-analysis of the deposited data

Results flagged for a closer look

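Among 82 groups of samples over 41 named probes, 6 held a sample far from the others of its group, where chance gives about 1 in 20 (5%). None was a Polycomb member or L1TD1. RYBP of variant PRC1 was lowest in induced sample 6, at 9.87 where the nearest was 10.43. SKP1 was highest in non-induced sample 3, at 10.82 with the nearest at 10.33, and so was the demethylase KDM6A, at 8.54 with the nearest at 7.999. KDM6B was lowest in induced sample 4, at 5.31 with the nearest at 5.91. Non-induced sample 2 was highest for HOXC11, at 6.73 with the nearest at 6.22, and for CDC6, which loads the replicative helicase, at 6.96 with the nearest at 6.55.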

How the results depend on the processing

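The EZH2 differences over all samples and in prefix 1 kept their direction under every alternative run for them. With the replicate number as a fixed block, the probes past the threshold over all samples went from 6 to 0, those in prefix 1 from 698 to 1356, and those of the interaction from 3 to 0. With a random block they numbered 21 over all samples and 1510 in prefix 1. All 3 EZH2 probes passed in prefix 1 with either block, and the block changed no other Polycomb call. Over all samples the count was 17 without background correction and with the authors' values, 14 with an offset of 50, 1 without a filter, 13 for probes detected on all arrays and 31 with array weights. Prefix 1 had 292 without a filter, where EZH2 ILMN_1652913 was lost (adjusted p = 0.135, limma), and 2674 with array weights. The interaction had 0 without background correction, with the authors' values, with an offset of 50 and for probes detected on all arrays, 1 with median scaling and without a filter, and 166 with array weights. The prefix levels went from 11 to 0 for probes detected on all arrays and to 110 with array weights. With array weights 1 Polycomb probe passed over all samples (EZH2 ILMN_1652913, -1.14, adjusted p = 0.0491, limma) and 1 by prefix (BMI1). Over all samples the calls were 5 higher and 1 lower, and 4 higher and 0 lower with median scaling.

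Scaling to a common median moved the median difference of all probes to -0.13 over all samples and to -0.22 in prefix 1, single probes by more or less, and moved the list medians to -0.18 for canonical PRC1, -0.14 for variant PRC1, -0.27 for the H2A deubiquitinase and -0.19 for the trithorax group. An exact permutation test of the EZH2 ratios, chosen after the values were seen and no separate result, passed in 5 of 12, and in 2 of 12 with that scaling. Signs turned for small differences. With median scaling SUZ12 was -0.17 over all samples and -0.23 in prefix 1, BMI1 -0.0063 and -0.030, MTF2 -0.0086 in prefix 1, and CBX2 -0.0062 by prefix. With the fixed block MTF2 was 0.016 over all samples. The BMI1 interaction was 0.18 with the fixed block, 0.020 with the random block, 0.20 with median scaling and 0.23 with array weights, and that of CBX2 0.058 and 0.16 with the last 2. With array weights MTF2 was -0.13 in prefix 1 and EZH2 ILMN_2364529 -0.028 by prefix.

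Leaving out each sample in turn gave 0 to 81 probes over all samples (0 to 1 Polycomb), 1 to 1141 in prefix 1 (0 to 3 Polycomb), 0 to 1 in prefix 5, 0 to 4 for the interaction and 3 to 19 for prefix levels. That test of the EZH2 ratios passed in 0 to 9. Signs turned over all samples for MTF2 (-0.21 to 0.075), PHC1 (-0.16 to 0.075) and SUZ12 (-0.094 to 0.12). In prefix 1 they turned for EED (-0.37 to 0.087) and MTF2 (-0.045 to 0.46). In prefix 5 they turned for EZH2 ILMN_1708105 (-0.058 to 0.18), JARID2 (-0.13 to 0.055) and SUZ12 (-0.087 to 0.23). For the interaction they turned for BMI1 (-0.14 to 0.18), EZH2 ILMN_1652913 (-0.017 to 0.72), L1TD1 (-0.057 to 0.33) and SUZ12 (-0.14 to 0.17). By prefix they turned for CBX2 (-0.055 to 0.11), EZH2 ILMN_1652913 (-0.33 to 0.043) and EZH2 ILMN_2364529 (-0.042 to 0.091). The causes were not tested. The file headers name no chip, so the chip as a block was not run. Probes near background, such as EED and HOXC11, limit what signal can show.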
